A study of Ciona robusta with 8 samples.

Results

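A set of 71 gene models was examined that stood close to zero in trunk ventral cells of Ciona robusta at 15 hours post fertilization (hpf) and were expressed 3 hours later. The rule took models with a mean level under 2 CPM (the reads of a model per 1000000 counts of its library) over the 4 libraries of 15 hpf, and 5 CPM or more in each of the 4 libraries of 18 hpf. It admitted 71 of the 15232 models listed, 0.466%. A further 14 models were excluded by name, of which 0 met both thresholds. The members were thus chosen by their measured CPM in every library at both times, and the difference between the times is given as a description with no test. The guides were not compared in the choice. The demand for 5 CPM in each library of 18 hpf nevertheless left out models that were low at that time with either guide.

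Each library came from sorted multipotent cardiopharyngeal progenitors, in which CRISPR/Cas9 mutagenesis was directed at Tcf or, as the control, run with a control guide RNA (gRNA). Either guide was sampled at 15 and at 18 hpf, with 2 libraries for each of the 4 combinations, so that no group went without CRISPR/Cas9 and a gRNA. Between 200 and 800 cells were sorted per sample. The sources used here do not give the promoter that drove Cas9, the share of mutated cells or the origin of the 2 libraries of a group, so p-values rest on a spread between libraries that may be technical only.

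Trunk ventral cells are the progenitors from which the heart and the pharyngeal muscles of the ascidian form. They migrate as a small group into the trunk of the embryo and divide asymmetrically, and their daughters then turn on separate heart and pharyngeal muscle programs. Tcf is the DNA-binding partner of β-catenin in canonical Wnt signalling, and it can hold target genes down without the signal and activate them with it. The deposited tables identify models by number alone. None of the 15232 identifiers (0) matched the 21486 genes of the reference table, so gene names, functions, positions and sequences are not given here, and the cell type could not be checked against its defining markers.

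Library totals ran from 6207795 to 9556959 counts, so that 5 CPM stood for 31.0 to 47.8 counts at the depths of these libraries and 1 count for 0.105 to 0.161 CPM. Reads carry no molecular identifiers in the sources used here, and intervals and floors cover counting error only. In bulk libraries, more cells expressing a model and more RNA per cell cannot be told apart.

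The 71 models were minor components of the progenitor transcriptome even at 18 hpf. Together they took 0.00648% and 0.00762% of the counts in the control libraries of 15 hpf, and 0.00932% and 0.0110% in the Tcf libraries of that time. At 18 hpf their share was 0.0942% and 0.118% with the control guide, compared with 0.103% and 0.0914% with the Tcf guide. The 2 times were far apart in both guides, as the rule required.

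**Figure D1:**
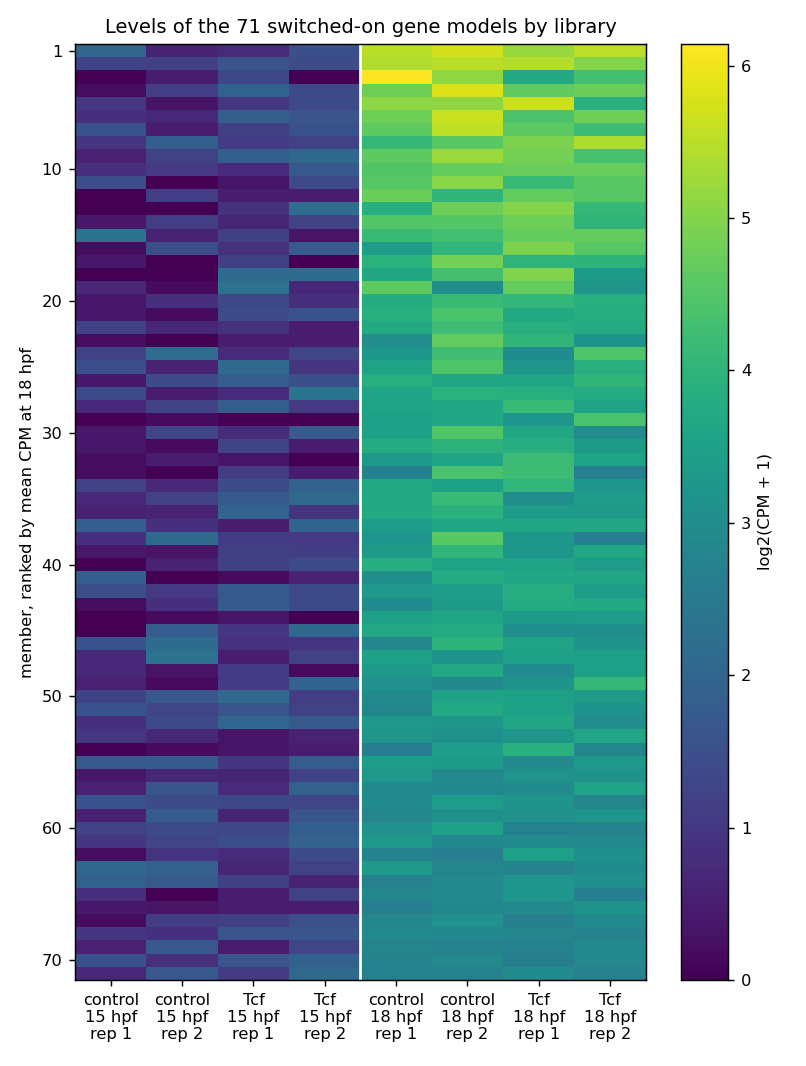
Level of each of the 71 models, log2(CPM + 1) by color, in the 8 libraries (columns), ranked from the top by mean CPM at 18 hpf. The 4 columns of 15 hpf are dark for nearly all models, with scattered lighter cells, and the 4 columns of 18 hpf are lighter throughout, from a mean of 44.3 CPM in the first row to 5.79 CPM at the low end.

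Levels at 18 hpf were mostly low, with the lower end set by the rule. Their mean over the 4 libraries ran from 5.79 to 44.3 CPM with a median of 11.3, and lay under 10 CPM in 27 models, from 10 to under 20 in 29, from 20 to under 40 in 14 and above that in 1. KH.C12.77 had the highest mean. It measured 44.8 and 51.6 CPM at 18 hpf with the control guide and 35.6 and 45.5 CPM with the Tcf guide, after 3.06, 0.515, 0.689 and 1.80 CPM at 15 hpf, in the order control replicates 1 and 2 and Tcf replicates 1 and 2. The next was KH.C1.719, with 41.3 and 44.4 CPM in control and 42.2 and 30.8 CPM in Tcf libraries of 18 hpf, after 1.29, 1.29, 2.07 and 1.68 CPM at 15 hpf in that order. Guides overlapped at 18 hpf in both models by library totals, whereas after scaling by TMM, edgeR's correction of library totals, both Tcf libraries lay below both control libraries in each.

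"Switched on" describes part of the set only, since few models were silent at 15 hpf. A count was present in all 4 libraries of 15 hpf for 55 of the 71 models. There were 10 models with 0 counts in 1 library, 5 with 0 in 2 libraries and 1 with 0 in 3, and 0 models were without a count in all 4. Only 27 stayed under 2 CPM in each library of 15 hpf, and the other 44 reached 2 CPM in at least 1. The mean level at 18 hpf was 3.16 to 391 times that at 15 hpf, with a median of 10.5. It was under 5 times in 11 models and 20 times or more in 18. At the upper end, KH.C1.238, picked out after its values were seen, had a total of 1 count at 15 hpf and 98 and 78 counts in control and 65 and 154 counts in Tcf libraries at 18 hpf, a ratio of pooled CPM of 362 (95% exact counting interval 64.6 to 14300). The interval describes counting error in the pooled counts alone. It covers neither the choice of the model by these same values nor the spread between libraries.

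The thresholds cut through a continuous range. KH.C8.764 and KH.C1.659 lay just inside the first, with mean levels of 1.996 and 1.986 CPM at 15 hpf, and KH.C9.534 and KH.C2.236 just outside, with 2.04 and 2.07 CPM. For the second threshold, the lowest library of 18 hpf held 5.02 CPM in both KH.S1508.1 and KH.L97.7, which were inside, and 4.92 CPM in KH.C11.279 and KH.C9.546, which were outside. A further 50 models met the 18 hpf threshold with a mean of 2 to under 3 CPM at 15 hpf, and 25 met the 15 hpf threshold with a lowest level of 4 to under 5 CPM at 18 hpf.

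The spread between replicates at 18 hpf was wide for many of these models. The higher of the 2 libraries exceeded the lower by a median of 1.33 times in control and 1.35 times in Tcf libraries of 18 hpf, against 1.16 and 1.13 times for the 7449 other models with 5 CPM or more in each library of 18 hpf. This difference was not tested, and the lists were not matched for level, although ratios carry more counting error at low counts. Ratios above 2 occurred in 9 models in control and in 7 in Tcf libraries. The widest belonged to KH.S483.1, with 5.44 and 19.8 CPM in control and 17.4 and 5.28 CPM in Tcf libraries of 18 hpf, and to KH.S1494.1, with 33.2 and 33.7 CPM in control but 49.5 and 13.9 CPM in Tcf libraries. The closest replicates were those of KH.C7.741, with 6.49 and 6.26 CPM in control and 5.92 and 5.67 CPM in Tcf libraries, and of KH.C7.158, with 12.1 and 12.8 CPM and with 7.34 CPM in both Tcf libraries.

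A single library of 18 hpf held many of the highest values. Control replicate 2 was the highest of the 4 libraries for 32 of the 71 models, 45.1%, against 29.2% of the 7449 other expressed models. Tcf replicate 1 was highest for 19 (26.8% against 27.6% of the others), Tcf replicate 2 for 11 (15.5% against 20.65%) and control replicate 1 for 9 (12.7% against 22.5%). The median ratio of a model to its own mean over the 4 libraries was 0.875 in control replicate 1 and 1.08 in control replicate 2, so the 2 control libraries lay on opposite sides of both Tcf libraries (1.02 and 0.931). With TMM-scaled CPM, chosen after seeing the data, control replicate 2 was highest for 28 models, 39.4% against 21.8% of the others. The median ratios on that scale were 0.922 and 1.05 with the control guide, compared with 0.985 and 0.945 with the Tcf guide.

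Over all 8 libraries KH.C1.719 and KH.C2.1145 had the profiles most like the median profile of the set, with Pearson's r of 0.995 and 0.993 between log2(CPM + 1) values. KH.C2.1145 measured 0.805, 1.03, 0.689 and 2.32 CPM at 15 hpf and 21.1, 25.0, 25.9 and 25.1 CPM at 18 hpf, in the order control replicates 1 and 2 and Tcf replicates 1 and 2. Across the 71 models r ran from 0.818 to 0.995. These values are a description over 8 libraries, and the step between the times that the rule imposed carries most of them.

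Identifiers of the 71 models were spread over 34 sequence labels, 23 of them with a single member. The letter C began the label in 45 models (63.4%, against 68.8% of all 15232 models), L in 14 (19.7% against 19.5%) and S in 12 (16.9% against 11.7%). Label C1 held 12 members of 1292 models and C7 held 8 of 779. Models on adjacent lines of the tables formed 1 pair, KH.S1182.1 and KH.S1182.2, which are also the only 2 models with that label. KH.S1182.1 was at 0.483 and 1.29 CPM in control and 2.62 and 3.22 CPM in Tcf libraries of 15 hpf, and at 23.4 and 36.5 CPM in control and 27.8 and 19.4 CPM in Tcf libraries of 18 hpf. KH.S1182.2 was at 0.805 and 0.644 CPM, 2.62 and 2.06 CPM, 26.6 and 48.4 CPM, and 20.5 and 27.0 CPM in the same order. Both were higher in the Tcf libraries than in the control libraries of 15 hpf without overlap. The sources used here do not say whether reads could be shared between neighbouring models.

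Whether the same models met the thresholds in each guide was examined by choosing models in the control libraries alone. These were tested in the Tcf libraries, which that choice did not use. In the control libraries alone, 140 models had a mean under 2 CPM at 15 hpf and 5 CPM or more in both libraries of 18 hpf. Of these, 71 rose between 15 and 18 hpf in the Tcf libraries and 0 fell (adjusted p under 0.05 with edgeR's quasi-likelihood test). This was 50.7% of the list, against 5.7% of all 11970 models tested that rose in the Tcf libraries. The risers overlapped largely with the set, since 53 of them were members and 18 were not, while 63 of the 140 were members. For members the rule itself required 5 CPM or more in both Tcf libraries of 18 hpf, which favours a rise there. All 140 passed the filter on low counts. The log2 fold change in the Tcf libraries was above 0 in 136 of the 140, with a median of 2.13 against 0.04 over all models tested. The count of risers dropped to 43 when Tcf replicate 1 of 15 hpf was left out, and to 41 when Tcf replicate 1 of 18 hpf was. By the thresholds themselves the guides shared fewer models. They were met in both guides by 44 models, which is 31.4% of the 140 in control and 40.0% of the 110 in Tcf libraries. Of the 96 control models that failed in Tcf libraries, 43 failed because of the level at 15 hpf alone, 31 because of the level at 18 hpf alone and 22 at both times.

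At 15 hpf the comparison of guides asked whether these models stood at different residual levels in cells that had received the Tcf gRNA. No single model passed the test (0 of 71 called, against 0.00835% of all 11970 models tested, edgeR's quasi-likelihood test, smallest adjusted p = 0.228). As a group the values leaned to the Tcf side. The summed level of the 71 models was 64.8 and 76.2 CPM in the control libraries, and it reached 93.2 and 110.3 CPM with the Tcf guide, a mean of 70.5 ± 8.12 against 101.8 ± 12.1 CPM (SD, n = 2 each). The 2 guides did not overlap, and an exact permutation test of 2 against 2 libraries could not fall below p = 0.333. Models without a count numbered 9 and 8 in the control libraries, compared with 1 and 5 under the Tcf guide.

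**Figure D2:**
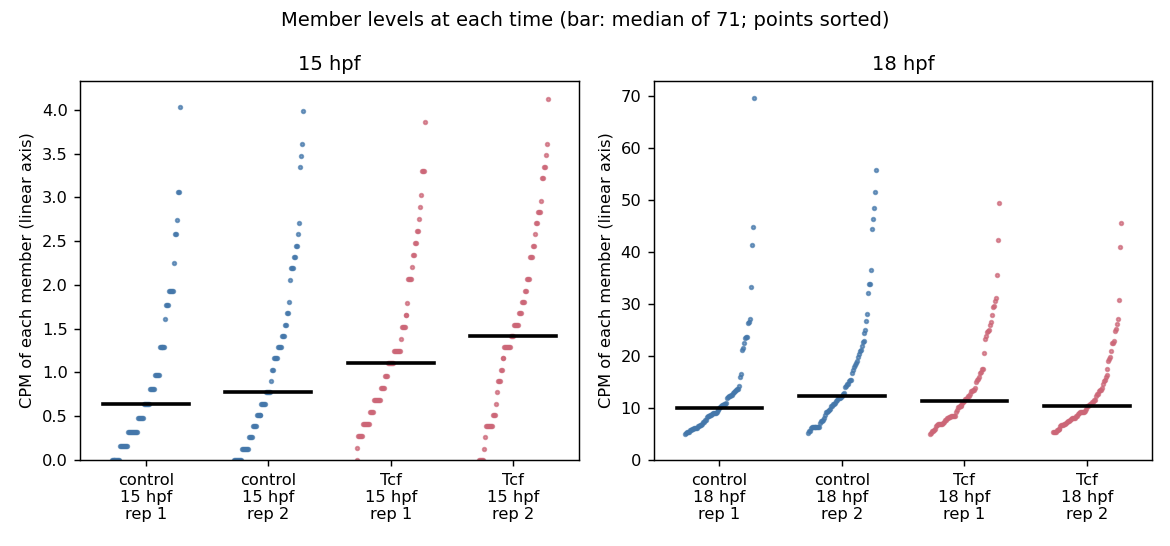
CPM of each of the 71 models (points, sorted within a library) in the 4 libraries of 15 hpf (left) and of 18 hpf (right), on linear axes that differ in scale, with control libraries in blue, Tcf libraries in red and the median as a bar. The medians at 15 hpf are 0.644 and 0.773 CPM in control and 1.10 and 1.42 CPM in Tcf libraries, whereas those at 18 hpf interleave at 9.94, 12.4, 11.3 and 10.3 CPM.

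The fitted log2 fold change of Tcf against control at 15 hpf was above 0 in 52 of the 71 models, against 51.2% of all models tested, with a median of 0.74 against 0.01. Its unadjusted p was under 0.05 in 19 models, where the share over all models was 5.05%. Values were higher in 16 of these, against 2.64% of all models, and lower in 3. That count depended on the fit. With limma-voom 4 of the 71 had an unadjusted p under 0.05, against 3.54% of all models. With edgeR on the 4 libraries of 15 hpf alone, 37 of the 71 passed the filter on low counts and 5 of them had an unadjusted p under 0.05, against 3.97% of the models so tested. The other 34 passed the filter only with the libraries of 18 hpf included. After TMM scaling, both Tcf libraries lay above both control libraries in 27 models, 38.0% against 17.3% of all models, and below both in 5, 7.04% against 15.2%. A lean to the same side occurred outside the set. Among the 185 models that began at 2 CPM or more at 15 hpf and had a mean level at least 4 times higher at 18 hpf, 127 had a log2 fold change above 0 at 15 hpf, with a median of 0.37. An unadjusted p under 0.05 (edgeR) occurred in 46 of these 185, 24.9%, compared with 26.8% of the 71 models. The 2182 other tested models under 2 CPM at 15 hpf had 1096 above 0 and a median of 0.01, and 109 of them (5.0%) had an unadjusted p under 0.05 (edgeR). The difference between these lists was not tested. The share of all models with a count did not part the guides at 15 hpf, at 87.3% and 91.5% in control libraries compared with 91.5% and 89.7% under the Tcf guide. The median of the set was 0.49, with 42 of 71 models above 0, without Tcf replicate 2 at 15 hpf, and 1.10 without control replicate 2.

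**Figure D3:**
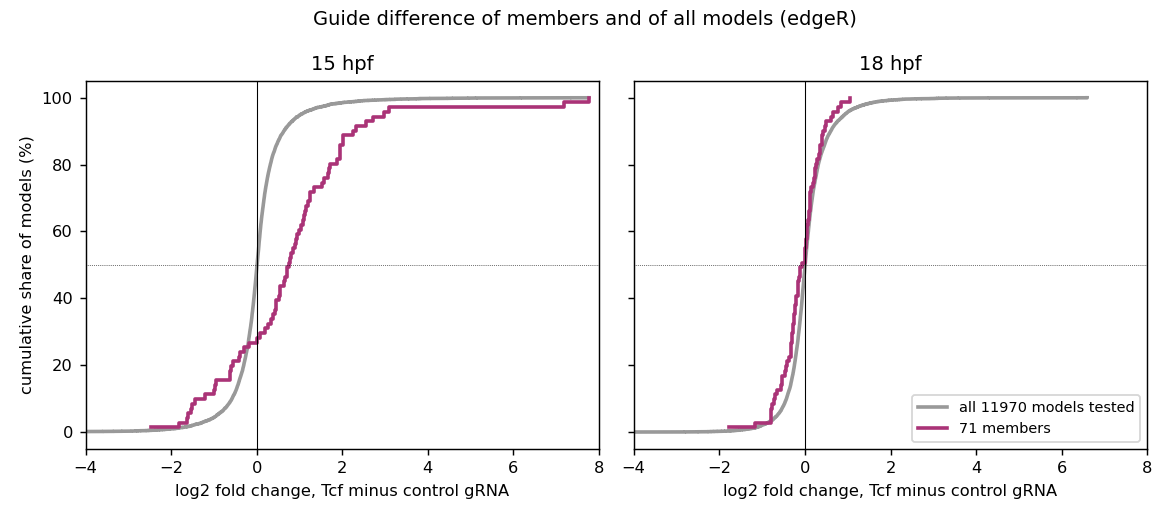
Cumulative share of models (vertical axis, percent) by log2 fold change of Tcf against control gRNA (horizontal axis) at 15 hpf (left) and 18 hpf (right), for the 71 models in purple and all 11970 tested models in grey. At 15 hpf the purple line lies to the right of the grey over most of its length, with medians of 0.74 and 0.01, and at 18 hpf both lines cross 50% near 0.

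The smallest p at 15 hpf among models with higher values belonged to KH.C10.516 and KH.L153.55. For KH.C10.516 the control libraries held 0 counts each and the Tcf libraries 24 and 27. Against a floor of 3 counts over the control group this was at least 15.8-fold higher. It did not pass (adjusted p = 0.228, edgeR), whereas DESeq2 called it (adjusted p = 0.00797; 2 of the 71 models called, against 0.184% of all models), and the adjusted p ran from 0.00797 to 0.999 over its 17 alternatives. At 18 hpf its libraries overlapped widely, at 11.8 and 19.1 CPM in control and 30.5 and 9.14 CPM in Tcf libraries. KH.L153.55 had 0.322 and 0.129 CPM, from 2 and 1 counts, in control and 1.65 and 1.93 CPM, from 12 and 15 counts, in Tcf libraries of 15 hpf, a log2 fold change of 2.97 (SE 0.63, adjusted p = 0.564).

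KH.S678.4 was the other model without a count in the control libraries of 15 hpf and with more than 3 counts in the Tcf libraries. It had 6 and 28 counts there, at least 10.5-fold higher against the same floor, and Tcf replicate 2 supplied most of them. It was not called by edgeR (adjusted p = 0.788) and was called by DESeq2 (adjusted p = 0.0274) and by edgeR without Tcf replicate 1 at 15 hpf (adjusted p = 0.0381). With lower values, KH.C7.173 had 3.06 and 2.70 CPM in control and 0.551 and 1.29 CPM in Tcf libraries, a log2 fold change of -1.61 (SE 0.56). KH.L19.1 had 1.93 and 3.48 CPM in control and 0.826 and 0.902 CPM in Tcf libraries, a log2 fold change of -1.64 (SE 0.58). Neither passed (adjusted p = 0.953 for each, edgeR's quasi-likelihood test), although the guides did not overlap in either.

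**Figure D4:**
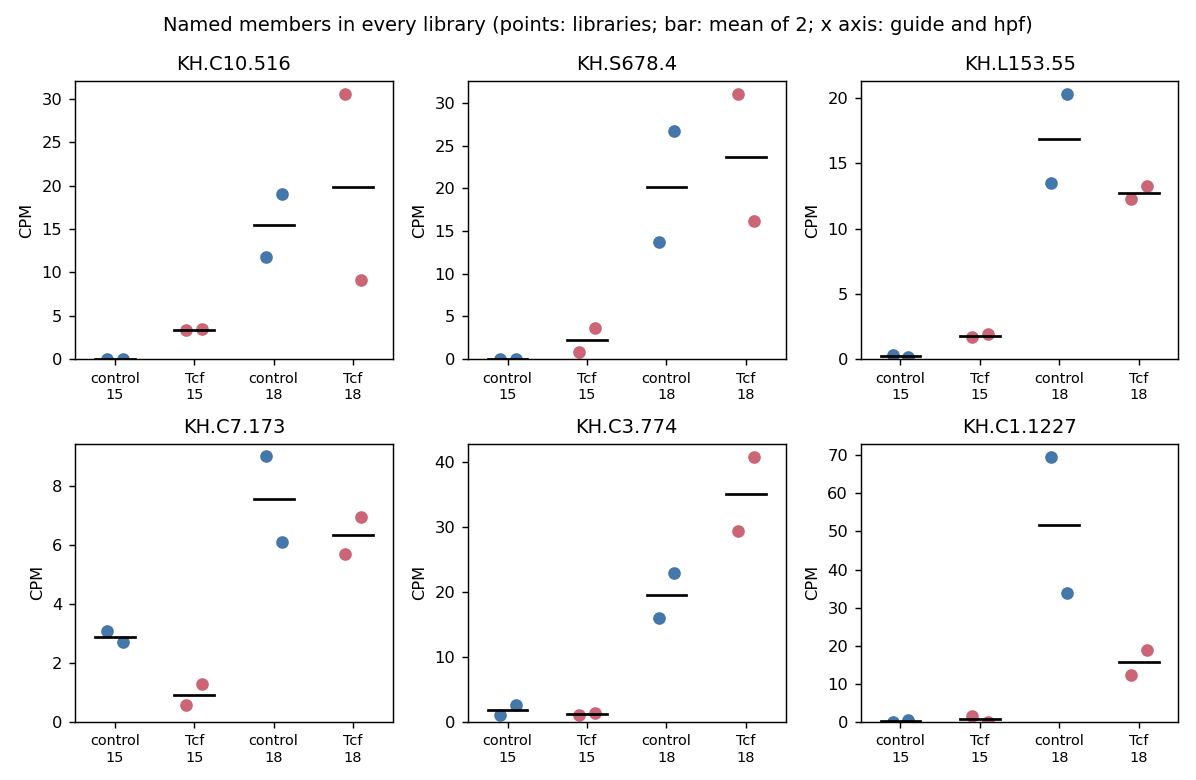
CPM of 6 of the 71 models in every library, as points by guide and time with the mean of 2 libraries as a bar, on linear axes from 0. KH.C10.516 and KH.S678.4 are at 0 in control libraries of 15 hpf alone, KH.L153.55 is higher and KH.C7.173 lower in Tcf libraries at 15 hpf, KH.C3.774 is higher and KH.C1.1227 lower in Tcf libraries at 18 hpf, and none of these differences passed edgeR's test.

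At 18 hpf, once the models were expressed, no model passed the test of the guides. Of the 71 models 0 were called, against 0.00835% of all models tested, and 2 had an unadjusted p under 0.05, against 3.83% of all models (edgeR). DESeq2 also called 0 (0.0919% of all models), as did limma-voom. The count with an unadjusted p under 0.05 depended on the fit, at 6 with limma-voom and 8 with edgeR on the 4 libraries of 18 hpf alone. Shares over all models are not given for these 2 counts, so they carry no reading about the set. The summed level was 942 and 1182 CPM in control and 1028 and 914 CPM in Tcf libraries, a mean of 1062 ± 169 against 971 ± 80.8 CPM (SD, n = 2 each), and the guides overlapped. The log2 fold change was above 0 in 34 models and below in 37, with a median of -0.06 against 0.01 over all models, of which 50.8% were above 0. In 68 of the 71 it lay within 1 unit on the log2 scale, and the rule's demand for 5 CPM in every library narrows that range. The standard error had a median of 0.46 on the log2 scale, against 0.34 over all models. On TMM-scaled values both Tcf libraries lay above both control libraries in 10 models, 14.1% against 16.7% of all models, and below in 17, 23.9% against 15.6%. A further 115 models under 2 CPM at 15 hpf reached 5 CPM at 18 hpf in the mean but not in each library. Their log2 fold change at 18 hpf was above 0 in 51 and below in 64, with a median of -0.25. An unadjusted p under 0.05 (edgeR) occurred in 9 of these 115 (7.83%), with 8 lower and 1 higher in Tcf libraries. The difference from the 71 models was not tested.

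The models with the smallest p at 18 hpf illustrate the spread. KH.C3.774 had 16.0 and 22.9 CPM in control and 29.4 and 40.8 CPM in Tcf libraries, a log2 fold change of 0.84 (SE 0.35, unadjusted p = 0.0316, edgeR). KH.C3.414 had 9.52 and 15.4 CPM in control and 29.6 and 22.4 CPM in Tcf libraries, a log2 fold change of 1.05 (SE 0.53). On the lower side, KH.C1.1227 had 69.6 and 33.7 CPM in control and 12.2 and 18.9 CPM in Tcf libraries, a log2 fold change of -1.77 (SE 0.67, unadjusted p = 0.0333, edgeR), and it held the highest single value of the set. KH.S1182.2, whose values are given above, followed with a log2 fold change of -0.66 (SE 0.31). Its guides overlapped by library totals and parted after TMM scaling, and those of the other 3 models did not overlap on either scale. Each of the 4 had an adjusted p of 1 (edgeR).

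Averaged over both times, 0 of the 71 models were called, against 0.0167% of all models (edgeR), and 11 had an unadjusted p under 0.05, against 4.12%. These 11 were 15.5% of the set, compared with 23 (12.4%) of the 185 models that rose from 2 CPM or more. KH.C10.516 (adjusted p = 0.478, edgeR) and KH.S678.4 led those with higher values, and DESeq2 called both (adjusted p = 0.0078 and 0.0399; 0.117% of all models). KH.C7.173 and KH.L19.1 led those with lower values, with log2 fold changes of -0.95 (SE 0.36) and -0.90 (SE 0.37).

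The interaction of guide and time, the guide difference at 18 hpf minus that at 15 hpf, asked whether the step from 15 to 18 hpf had the same size in both guides. The summed level at 18 hpf was 15.1 times that at 15 hpf in control and 9.54 times in Tcf libraries. No model passed (0 of 71, against 0% of all models tested, edgeR), and 13 had an unadjusted p under 0.05, against 4.69% of all models. DESeq2 called 1, KH.C10.516 (adjusted p = 0.0266; 0.167% of all models). With limma-voom 0 members were called at 15 hpf, over both times and for the interaction. The interaction was above 0 in 20 of the 71 models, against 50.1% of all models, and below 0 in 51, with a median of -0.96 on the log2 scale against 0.00058 over all models. In the 185 models that rose from 2 CPM or more, the interaction was above 0 in 55 and below 0 in 130, with a median of -0.54. Its unadjusted p was under 0.05 in 49 of these 185 (26.5%, edgeR), compared with 18.3% of the 71. The difference between the lists was not tested. The interaction contains the guide difference at 15 hpf, so its lean in the 71 models is not a separate observation. The 185 models also leaned at 18 hpf itself, where 55 were above 0 and 130 below, with a median of -0.25. An unadjusted p under 0.05 (edgeR) occurred at 18 hpf in 23 of them (12.4%), with 22 lower and 1 higher in Tcf libraries. The share over all models was 3.83%. Among the 71 models KH.L153.55 had the smallest p (interaction -3.39, SE 0.73, adjusted p = 0.549, edgeR). The positive value with the smallest p was that of KH.S346.10 (1.92, SE 0.69, adjusted p = 0.968, edgeR), which had 2.74 and 2.32 CPM in control and 1.24 and 0.515 CPM in Tcf libraries at 15 hpf, and 5.34 and 6.41 CPM and 8.37 and 7.47 CPM at 18 hpf.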

How the data were processed

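Bulk RNA sequencing of sorted trunk ventral cells gave 8 libraries in 4 groups of 2. The authors deposited whole-number read counts per KH2013 gene model, one table per library, with no normalization. TopHat2 2.0.12 and featureCounts are named in the submitters' processing notes, while the sources used here give neither the genome build, nor whether counting used strand, nor how reads with several matches were handled. Sample titles gave groups and replicate numbers. The file headers number the 2 control libraries of 15 hpf the other way round. Library totals ran from 6207795 to 9556959 counts. No 2 libraries held identical values, and the closest pair in a chi-square comparison came from different guides (statistic per degree of freedom 6.83).

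The members, lists and tests were chosen with earlier results of these data known. CPM used library totals for the rule and for all levels printed. Models were tested with edgeR 4.0.16 (R 4.3.3) by a robust quasi-likelihood F test on a model of 4 group means over all 8 libraries, after filterByExpr (minimum count 10) and TMM scaling. This left 11970 models, among them all 71 members, and Benjamini-Hochberg adjustment ran over all of them, with calls at an adjusted p under 0.05. SE was obtained as the log2 fold change over the root of the F statistic. The fit was tested on simulated data. Alternatives were DESeq2 1.42.0, limma-voom (limma 3.58.1), other scalings, no filter, a replicate block, fits without each library and other thresholds. Named members were, up to 2 per category, those with the highest level, the smallest p in each direction of each guide contrast, the extreme replicate ratios, the values nearest to each threshold and the profile nearest to the median. A category for members without any count at 15 hpf was empty, and marker and pathway lists by symbol could not be applied.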

Additional observations from a re-analysis of the deposited data

Results flagged for a closer look

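In 5 of the named models the libraries of the guides, on TMM-scaled CPM, parted in opposite directions at the 2 times, and the interaction, which tests this difference, did not pass in any of them with edgeR. KH.L153.55 had a log2 fold change of Tcf against control of 2.97 at 15 hpf and -0.42 at 18 hpf (interaction adjusted p = 0.549, edgeR). KH.S1182.2 had 1.68 at 15 hpf and -0.66 at 18 hpf (interaction adjusted p = 0.722, edgeR). KH.C7.741 had 1.25 at 15 hpf and -0.17 at 18 hpf, and KH.C1.719 had 0.53 and -0.26 (interaction adjusted p = 0.989 for each, edgeR). KH.S346.10 went the other way, with -1.52 at 15 hpf and 0.41 at 18 hpf (interaction adjusted p = 0.968, edgeR). KH.L153.55, KH.S1182.2 and KH.S346.10 had been named for a small p in a guide contrast, a choice that favours such parting. Over the whole set, 27 members had both Tcf libraries above both control libraries at 15 hpf. At 18 hpf 8 of these 27 parted to the lower side, 2 parted to the higher side and 17 overlapped. At 18 hpf 23.9% of the 71 models parted to the lower side and 14.1% to the higher side, whatever their order at 15 hpf. Over all models tested these shares were 15.6% and 16.7%. The reverse order was not counted over the set. No share over all models is given for parting at both times, so the counts among the 27 carry no reading about the set.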

How the results depend on the processing

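The size of the set followed its thresholds, with 24 models for a mean under 1 CPM at 15 hpf, 27 for under 2 CPM in each library, 22 for 10 CPM or more in each library of 18 hpf and 186 for a mean of 5 CPM or more. It was 64 with TMM and 60 with DESeq2 scaling of CPM, all of them among the 71, and 72 to 90 without any 1 library. Members called between guides stayed at 0 at 18 hpf in all 19 alternatives. At 15 hpf DESeq2 called 2, and fits without 1 library 0 to 1. For the mean of both times DESeq2 called 2, and for the interaction 1. The median log2 fold change at 15 hpf ran from 0.49 to 1.10 and that of the interaction from -1.27 to -0.70 without any 1 library. With only the 4 libraries of 15 hpf, 28 of the 37 members tested were above 0. Members with an unadjusted p under 0.05 numbered 4 at 15 hpf, 6 at 18 hpf, 4 for the mean and 5 for the interaction with limma-voom. The share over all models is given for 15 hpf alone, so the other counts stand without one beside them. Models chosen by control libraries that rose in Tcf libraries numbered 41 to 77 without any 1 library.

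Replicate numbers were not taken to pair the libraries, since no label says whether a number marks a shared batch. Deviations of same-numbered libraries correlated at 0.044 between guides at 15 hpf and at -0.171 at 18 hpf (across 11970 models). With the replicate block 0 members were called in each guide contrast, the medians were 0.76 at 15 hpf, -0.06 at 18 hpf and -0.96 for the interaction, and 65 of the 140 control-chosen models rose in Tcf libraries. With the numbers crossed in the control libraries of 18 hpf, or of 15 hpf as in the file headers, both chosen after seeing the data, 0 members were called too.

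Fold changes of the models named for their smallest p in a guide contrast kept their direction under every alternative of that contrast, and those of models named on other grounds were not followed. Depth limits the comparison at 15 hpf, where the 71 members together had 402 to 856 counts per library.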
